A study of Mus musculus with 2 samples.

Results

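Cytochrome P450 genes other than those of the core steroid and sterol pathway were examined in adrenal glands by long-read RNA sequencing. The genes were all annotated mouse genes named Cyp, a family number, a subfamily letter and a final number, with Cyp11a1, Cyp11b1, Cyp11b2, Cyp21a1 and Cyp51 left out. The GENCODE M21 annotation holds 90 such genes, all protein-coding, and 36 of them had at least 1 read among the 16400 annotated genes with reads. Genes with a letter after the final number, such as Cyp3a41a, fall outside this rule and are not in the subfamily counts below. The donors were female B6CASTF1/J mice aged 25 days, an F1 hybrid strain with a C57BL/6J and a CAST/EiJ parent. There was 1 group of 2 libraries, biological replicates 1 and 2, with no treatment and no other tissue, so every test compares these 2 libraries and no condition. The library descriptions name the same animal for both, whereas the tissue descriptions name a different animal for each, so the p-values measure only the difference between the libraries, which may be technical.

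Cytochrome P450 enzymes bind heme through a cysteine and insert an oxygen atom into their substrates. In the endoplasmic reticulum they take electrons from the reductase Por, and in mitochondria from ferredoxin. The adrenal cortex is known for the P450s that make corticosteroids, while families 1 to 3 are best known from liver and lung, where they oxidise drugs and other foreign compounds, and family 4 for the hydroxylation of fatty acids. Adult mouse adrenals are known to make little or no Cyp17a1, and corticosterone is accordingly the main glucocorticoid of the mouse.

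Replicate 1 had 397176 reads on annotated mouse genes and replicate 2 had 712032. Levels are given as CPM, which are a gene's reads scaled to these totals. A long read was taken to stand for 1 transcript molecule whatever its length, so levels were not divided by length. Molecular identifiers were not given, so repeated copies of a molecule cannot be told apart. The most read annotated transcripts of the genes with at least 10 reads over both libraries were 1702 to 3808 bases long. Longer molecules may be read less often. Where a gene had no read, up to 3 could have been missed by counting error alone, a limit of 7.55 CPM for replicate 1 and 4.21 CPM for replicate 2. Markers of the labelled tissue were present in both libraries, with all 5 cortex genes (Star, Nr5a1, Hsd3b1, Cyp11a1, Akr1c18) and all 5 chromaffin genes read, and all 5 kidney tubule genes at 0 in both. The 20 genes of a hepatocyte list went apart between the libraries: 19 had reads in replicate 1 and 4 in replicate 2, with summed levels of 939 and 302 CPM. Cell numbers and RNA per cell cannot be told apart in these bulk libraries.

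The P450 genes outside the core pathway were a small set of transcripts led by 1 gene. Together they took up 805 reads of replicate 1 and 1166 of replicate 2, at 2027 and 1638 CPM and a mean of 1832 ± 275 CPM (SD, n = 2). Cyp2f2 held 82.6% of these reads in replicate 1 (95% Wilson interval 79.8 to 85.1%) and 75.7% in replicate 2 (73.2 to 78.1%). The remaining members summed to 140 reads in replicate 1 and 283 in replicate 2, or 352 and 397 CPM. Of the 90 genes, 40% had a read, against 62.0% of the 22028 protein-coding genes of the annotation, and 54 had none.

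**Figure D1:**
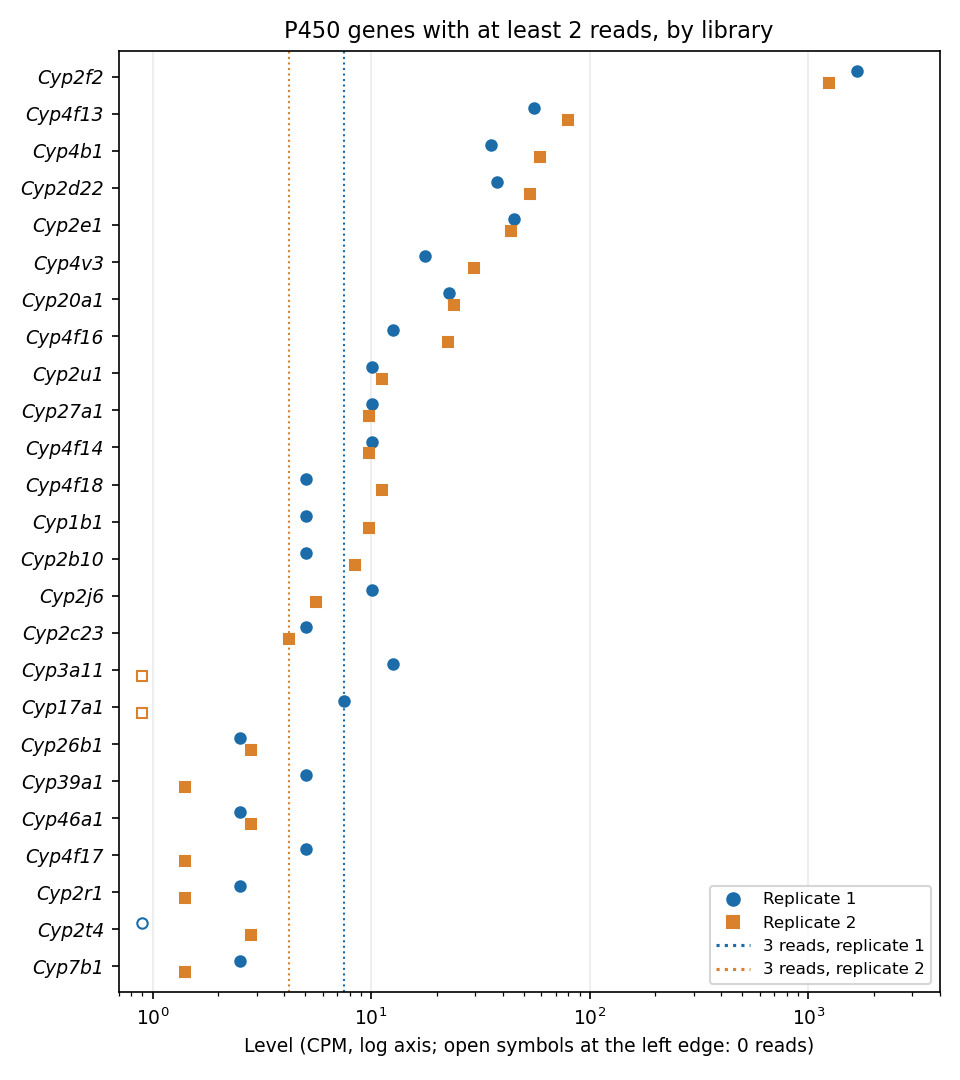
Levels in CPM (log axis) of the 25 P450 genes with at least 2 reads over both libraries, with circles for replicate 1 and squares for replicate 2, open symbols at the left edge for 0 reads and dotted lines at the level of 3 reads. Cyp2f2 stands at 1674 and 1240 CPM, and the next gene, Cyp4f13, at 55.4 and 80.1 CPM.

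Cyp2f2 is the enzyme that oxidises naphthalene in the club cells of the mouse airway. Its gene lies on the forward strand at chr7:27119909-27133660 (mm10), and its annotated transcript Cyp2f2-201 has 10 exons, 1866 bases and a coding sequence for 491 residues. Replicate 1 held 665 of its reads and replicate 2 held 883, at 1674 and 1240 CPM and a mean of 1457 ± 307 CPM. By mean level it ranked 52 among the 16400 genes read, 21.5 times above Cyp4f13, the next member. For scale, Cyp11a1, which opens steroid synthesis by cleaving the side chain of cholesterol, had 17.9 times the level of Cyp2f2, and Cyp21a1, the steroid 21-hydroxylase, 11.6 times. Cyp2f2 was in turn above Cyp11b2, the aldosterone synthase of the outer cortex, 10.2 times in replicate 1 and 4.05 times in replicate 2.

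The heme-binding stretch of a P450 is its best conserved part. It was sought as the 10-residue heme-thiolate signature in the coding sequence of the most read annotated transcript of each gene (or, where none had reads, the longest protein-coding one), and 30 of the 36 genes with reads held it. The 30 bases that encode it are shown for the 5 most read members and for Cyp17a1, 5′ to 3′ from the GENCODE M21 transcripts, with the codon of the heme-binding cysteine in capitals, to let the conserved stretch be compared between families.
Cyp2f2-201: ttttcggctggacgtcgactgTGTctggga
Cyp4f13-201: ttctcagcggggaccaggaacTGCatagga
Cyp4b1-201: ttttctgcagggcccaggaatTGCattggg
Cyp2d22-201: ttctcagcaggccgcagatcaTGCctgggg
Cyp2e1-201: ttttctgcaggaaagcgcgtgTGTgttgga
Cyp17a1-201: ttcggagctggtccccgatcgTGCattgga
The cysteine codon was TGC in 20 of the 30 genes and TGT in 10, and in 25 of them it lay in the last exon. Cyp2d22 and Cyp2d26 shared the same 30 bases, as did Cyp2c40 and Cyp2c69. The 6 genes in which the pattern had no match were Cyp20a1, Cyp2u1, Cyp39a1, Cyp2t4, Cyp7b1 and Cyp8b1; no match says only that this pattern is not in the transcript examined.

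Most Cyp2f2 reads covered the coding sequence up to the heme-binding codon. The model of the read included that codon, at residue 436 in exon 10, for 98.9% of reads in replicate 1 and 99.2% in replicate 2. Both the start codon, which lies in exon 2, and the cysteine codon were included for 91.7% and 91.1% of reads. Reads assigned to Cyp2f2-201 numbered 579 in replicate 1 and 762 in replicate 2. Counted intron by intron, the share of Cyp2f2 reads spliced exactly as annotated was 89.8% in replicate 1 and 88.7% in replicate 2 for intron 1, and 96.5% and 98.0% for intron 9, so the 5′ end was the less complete one in both libraries.

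**Figure D2:**
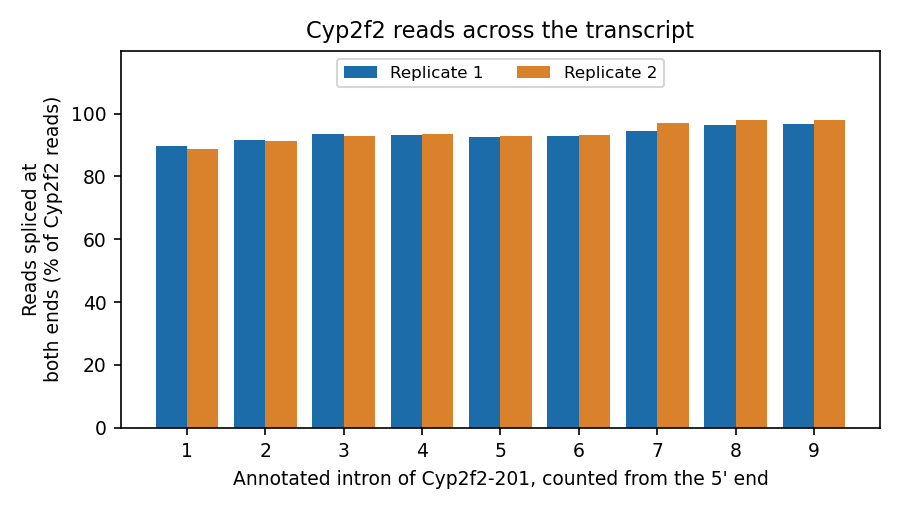
Share of all Cyp2f2 reads in each library that were spliced exactly at each of the 9 annotated introns of Cyp2f2-201, ordered from the 5′ end, with replicate 1 left of replicate 2. The share was 89.8% and 88.7% at intron 1 and 96.5% and 98.0% at intron 9.

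Departures from annotated Cyp2f2 splicing were rare. Of 20 unannotated junctions, 6 had reads in both libraries and 14 in 1 library. Junctions outside the annotation made up 0.356% of all junctions in Cyp2f2 reads in replicate 1 and 0.294% in replicate 2. A read can cross several junctions, so shares per read are higher. Models classed as new combinations of known splice sites held 10 of 665 reads in replicate 1 and 9 of 883 in replicate 2. Models classed as having a new splice site held 14 and 18 reads. Exon 6, of 177 bases and so a whole number of codons, was skipped by an annotated junction in 3 of 619 reads in replicate 1 (0.485%, 95% Wilson interval 0.165 to 1.42%) and 6 of 825 in replicate 2 (0.727%, 0.334 to 1.58%). An acceptor 3 bases downstream of the annotated start of exon 7 was used in 3 of 620 reads in replicate 1 and 5 of 827 in replicate 2, or 0.484% and 0.605%. In exon 1, which lies in the 5′ UTR, a donor 23 bases downstream was used in 5 of 602 reads in replicate 1 and 5 of 788 in replicate 2. The exon 7 variant removes 1 whole codon; the junction is shown as annotated and as varied, with the 3 lost bases in capitals.
Cyp2f2-201, exons 6 and 7: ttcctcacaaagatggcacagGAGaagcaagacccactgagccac
Cyp2f2, downstream acceptor: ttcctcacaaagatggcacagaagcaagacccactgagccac

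The other members with at least 10 reads over both libraries numbered 11, at mean levels of 8.14 to 67.7 CPM. The median mean level of all genes read in both libraries was 23.1 CPM. Cyp4f13 came first, at 55.4 CPM in replicate 1 and 80.1 CPM in replicate 2, against 35.2 and 59.0 CPM for Cyp4b1. It was above Cyp4b1 within each library, but the ranges of the 2 genes over both libraries overlapped. The mean levels of Cyp4b1, Cyp2d22 and Cyp2e1 were 47.1, 45.6 and 44.4 CPM. They differed by less than the spread of Cyp4b1 or Cyp2d22 between the libraries (SD 16.8 and 11.0 CPM), whereas the SD of Cyp2e1 was 1.26 CPM.

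Among the genes of fatty acid and eicosanoid metabolism, 10 of 25 had reads, with summed levels of 131 CPM in replicate 1 and 171 CPM in replicate 2. Cyp4f13, of the subfamily that hydroxylates long fatty acids and leukotrienes, was read 22 times in replicate 1 and 57 times in replicate 2, a mean of 67.7 ± 17.4 CPM. Cyp4v3, the mouse counterpart of the human gene CYP4V2, which is mutated in a retinal dystrophy, had 7 and 21 reads (23.6 ± 8.39 CPM). Of the other Cyp4f genes, Cyp4f16 had 5 and 16 reads, Cyp4f14 had 4 and 7, and Cyp4f18 had 2 and 8. All of these had reads in both libraries, and so did Cyp4f17 with 2 and 1. Cyp4f15 had 1 read in replicate 1 and 0 in replicate 2. The 5 Cyp4a genes, which hydroxylate fatty acids in liver and kidney, were at 0 in both libraries, and so were Cyp4f37, Cyp4f39, Cyp4f40 and Cyp2s1. In the Cyp2j group, which makes epoxides of arachidonic acid, Cyp2j6 had 4 reads in each library, Cyp2j12 had 1 read in replicate 1 and 0 in replicate 2, and the other 6 genes had none. The transcript of Cyp4f16 is 95.9% identical over its best alignment to that of Cyp4f37, so reads of these genes could be misassigned.

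Cyp2u1, which hydroxylates long-chain fatty acids, had 4 reads in replicate 1 and 8 in replicate 2, and the codon of the heme-binding cysteine lay in the model of 1 of the 4 and 0 of the 8. The shorter annotated transcript Cyp2u1-203, of 4 exons, was assigned 2 reads in replicate 1 and 6 in replicate 2, while the transcript of 5 exons, Cyp2u1-201, was assigned 1 and 0. The signature was found in Cyp2u1-201, with the cysteine codon in exon 5, and not in Cyp2u1-203, whose coding sequence ends at 501 residues against 530. Exons 4 and 5 were joined by 1 read in replicate 1 and 0 in replicate 2. The codons that the shorter transcript lacks are shown with the cysteine codon in capitals.
Cyp2u1-201: tttgggatagggaagcgggtgTGTatggga

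Cyp4b1, which oxidises fatty acids and some foreign compounds, mainly in lung, had 14 reads in replicate 1 and 42 in replicate 2 (47.1 ± 16.8 CPM). Its gene lies on the reverse strand at chr4:115624725-115647723. Of the reads spliced into exon 2, 2 of 12 in replicate 1 and 3 of 40 in replicate 2 came from a first exon whose donor lies 9596 bases upstream of the annotated one. These shares were 16.7% (95% Wilson interval 4.70 to 44.8%) and 7.50% (2.58 to 19.9%), and the intervals overlap.

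The genes of foreign-compound metabolism included Cyp2f2 and held 44 members, of which 15 had reads, 6 of them in both libraries. Cyp2e1, which oxidises ethanol and other small molecules, had 18 reads in replicate 1 and 31 in replicate 2, at a mean level of 44.4 ± 1.26 CPM, with a 95% counting interval of -0.87 to 0.94 for the log2 ratio of replicate 1 over replicate 2. Of its reads, 17 and 27 were of the annotated transcript Cyp2e1-201. Cyp1b1, an oxidase of polycyclic hydrocarbons and oestrogens, had 2 and 7 reads, Cyp2b10, a standard target of the receptor Nr1i3, had 2 and 6, and Cyp2c23, an epoxygenase of arachidonic acid, had 2 and 3. The counts of these last genes are too low for a comparison between the libraries. The dioxin receptor target Cyp1a1, all 4 Cyp2a genes and the other 4 Cyp2b genes were at 0 in both.

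Cyp2d22, a member of the debrisoquine hydroxylase subfamily, was spliced at its first intron mostly from a donor that the annotation lacks. It lies on the reverse strand at chr15:82370527-82380260 and had 15 reads in replicate 1 and 38 in replicate 2 (45.6 ± 11.0 CPM). The annotated transcript Cyp2d22-201 was assigned 1 read in each library. A model of the same 10 exons with an exon 1 that ends 6 bases earlier had 7 reads in replicate 1 and 13 in replicate 2. Counted over all models, the upstream donor was used in 8 of 9 reads in replicate 1 (88.9%, 95% Wilson interval 56.5 to 98.0%) and 23 of 25 in replicate 2 (92.0%, 75.0 to 97.8%). Of those, 0 of 8 reads in replicate 1 and 5 of 23 in replicate 2 also joined an acceptor 4 bases downstream in exon 2 (upper 95% Wilson bound for 0 of 8, 32.4%). The lost bases are positions 181 to 186 of Cyp2d22-201, in the 5′ UTR ahead of the coding sequence, which starts at position 247. The exon junction is shown as annotated, with the 6 bases that most reads across the intron lacked in capitals, and as read.
Cyp2d22-201, exons 1 and 2: cagaacgcaccgGTAAAGgtagctggagtt
Cyp2d22, upstream donor: cagaacgcaccggtagctggagtt

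**Figure D3:**
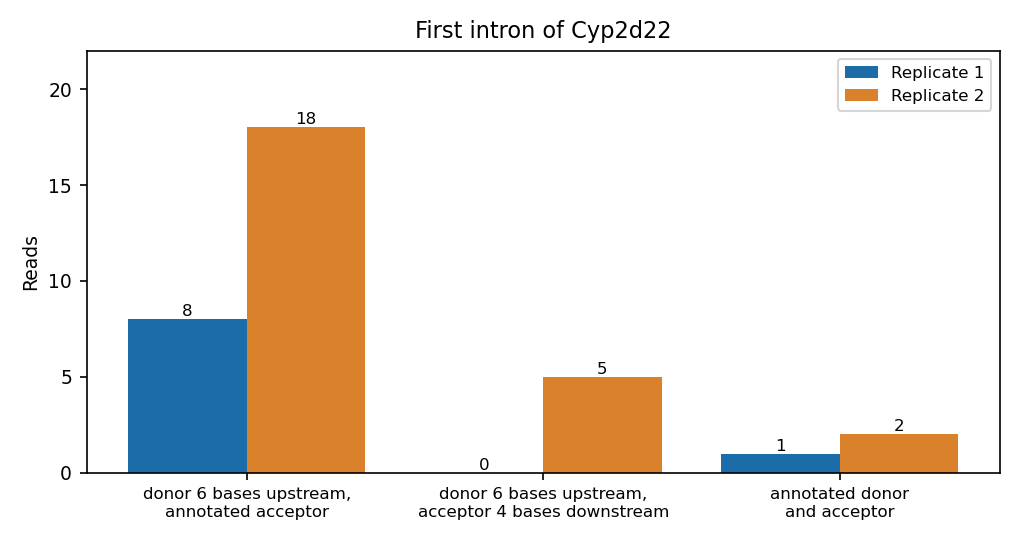
Reads across the first intron of Cyp2d22 in each library, by the donor of exon 1 and the acceptor of exon 2, with replicate 1 left of replicate 2. The upstream donor carried 8 and 23 reads in all, and the annotated donor with its annotated acceptor carried 1 and 2.

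Across all members, reads assigned to an annotated transcript made up 83.7% in replicate 1 and 81.0% in replicate 2, against 77.1% and 77.0% over all annotated genes. Without Cyp2f2 the members' share was 67.9% of 140 reads and 64.3% of 283. Cyp2d22 lowers this share, with 1 of its 15 reads in replicate 1 and 1 of its 38 in replicate 2 assigned to an annotated transcript. Of 121 spliced models of members outside the annotation, 25 were found in both libraries, and 8 had at least 3 reads in each, of which 7 belonged to Cyp2f2 and 1 to Cyp2d22. Of these 8, 5 were incomplete copies of the annotated Cyp2f2 introns, and 3 had another chain of introns. The most read such model of Cyp4f14, of 13 exons, had 2 reads in replicate 1 and 1 in replicate 2, and those of Cyp4f13, Cyp4f16 and Cyp27a1 had 1 read in each.

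The sterol, vitamin D and retinoic acid enzymes were at the edge of detection. Of the 6 sterol and bile acid genes, 5 had reads, with sums of 8 reads in replicate 1 and 12 in replicate 2. Cyp27a1, the mitochondrial sterol 27-hydroxylase, had 4 and 7 reads (9.95 ± 0.170 CPM). Cyp39a1, an oxysterol hydroxylase, had 2 and 1 reads, Cyp46a1, the cholesterol 24-hydroxylase of brain, had 1 and 2, and Cyp7b1, the oxysterol 7-alpha-hydroxylase, had 1 in each. Cyp8b1, the sterol 12-alpha-hydroxylase of bile acid synthesis, had 0 reads in replicate 1 and 1 in replicate 2, and Cyp7a1, which controls the rate of that pathway, was at 0 in both. Of the vitamin D genes, the 25-hydroxylase Cyp2r1 had 1 read in each library, and Cyp24a1 and Cyp27b1 had none. Among the enzymes that clear retinoic acid, Cyp26b1 had 1 and 2 reads and Cyp26a1 and Cyp26c1 had none. Each gene at 0 could have had up to 7.55 CPM in replicate 1 and 4.21 CPM in replicate 2.

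Cyp17a1, the 17-alpha-hydroxylase needed for cortisol and androgens, was read 3 times in replicate 1 and 0 times in replicate 2. Its level in replicate 1 was 7.55 CPM, and the limit in replicate 2 was 4.21 CPM. All 3 reads were assigned to the annotated transcript Cyp17a1-201 of 8 exons. Cyp19a1, the aromatase that makes oestrogens, was at 0 in both libraries.

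The members that lacked a role above included Cyp20a1, an orphan P450 of unknown substrate, with 9 reads in replicate 1 and 17 in replicate 2 (23.3 ± 0.859 CPM). All of them were of annotated transcripts, 9 and 16 of Cyp20a1-201. Cyp2t4 had 0 and 2 reads, both unspliced models of 1 exon within its gene, which overlaps the oppositely oriented Egln2 with 127 and 213 reads. The sources used here do not say how strand was handled, so those 2 reads cannot be told apart from the Egln2 strand. Cyp2ab1, Cyp2g1, Cyp2w1 and Cyp4x1 were at 0 in both libraries.

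Between the libraries, Cyp2f2 was the only member that differed among the 12 with at least 10 reads, by a two-sided exact binomial test over all annotated genes with Benjamini-Hochberg adjustment at a threshold of 0.05. It was 1.35-fold higher in replicate 1 (log2 ratio 0.43, 95% counting interval 0.29 to 0.58, exact binomial adjusted p = 1.78e-06). Over all 9271 genes tested, 199 passed, which is 2.15%. With at least 30 reads summed, 199 of 5845 genes passed. The test can call smaller ratios in genes with more reads. Cyp2f2 had 1548 reads over both libraries, and the next member, Cyp4f13, had 79. Of the 11 members other than Cyp2f2, 8 had a higher level in replicate 2 and none passed. Their intervals all include 0. The median log2 ratio of the 12 was -0.27 and that of all genes tested was -0.03. At these depths the intervals of the low members are wide, and for Cyp4f18 the interval ran from -4.43 to 1.17.

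**Figure D4:**
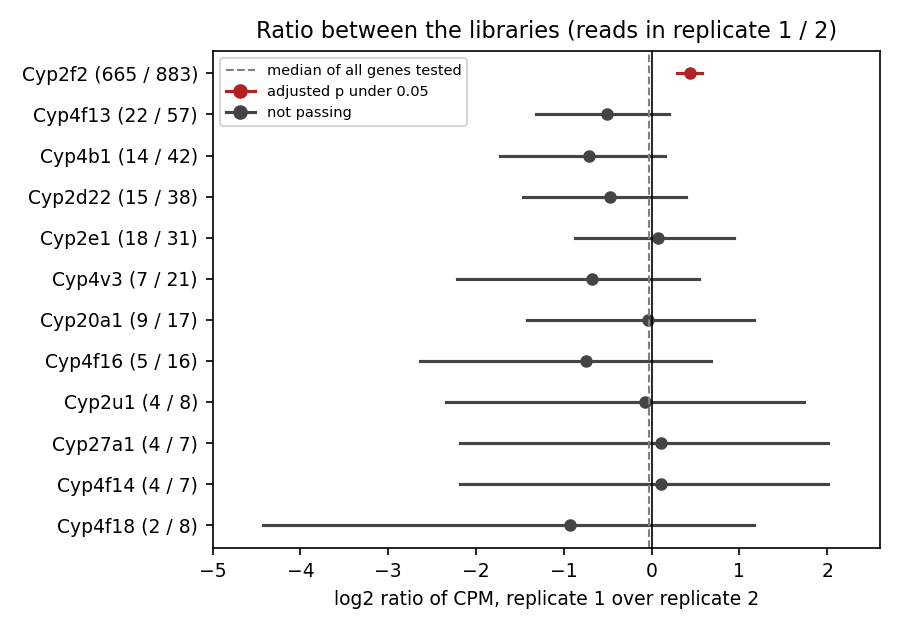
The log2 ratio of CPM in replicate 1 over replicate 2 for the 12 P450 genes with at least 10 reads (point) and its 95% exact binomial counting interval (line), with reads in replicate 1 and replicate 2 beside each name. Cyp2f2, at 0.43, is the gene whose interval excludes 0, and the dashed line marks the median of all genes tested, -0.03.

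The set of members that were read also differed between the libraries. Replicate 1, with fewer reads, had 34 members with a read and replicate 2 had 24, and 22 had reads in both. Replicate 2 thinned to the depth of replicate 1 had 21.3 ± 1.03 members with a read (SD over 20 draws, range 19 to 23). Of the 36 members read, 12 (33.3%) were read in replicate 1 only and 2 (5.56%) in replicate 2 only, whereas over all genes read the shares were 6.54% and 16.8%. The 12 genes had 18 reads in all: Cyp3a11, the chief drug-oxidising Cyp3a gene of mouse liver, had 5, Cyp17a1 had 3, and Cyp1a2, Cyp2c40, Cyp2c54, Cyp2c69, Cyp2c70, Cyp2d10, Cyp2d26, Cyp2j12, Cyp3a25 and Cyp4f15 had 1 each. By subfamily, 2 of the 7 Cyp3a genes, 4 of the 15 Cyp2c genes and 2 of the 8 Cyp2d genes were read in replicate 1 only, and the other 5 Cyp3a genes, 10 Cyp2c genes and 5 Cyp2d genes had no read. Near-identical copies limit the assignment of some of these reads: the transcript of Cyp2c40 is 98.0% identical to Cyp2c68 over their best alignment, Cyp2c69 is 97.7% identical to Cyp2c40, and Cyp3a25 is 97.0% identical to Cyp3a59.

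The hepatocyte list also differed between the libraries, whereas the direction of the 12 members above follows from how they were picked. Albumin (Alb) had 32 reads in replicate 1 and 1 in replicate 2, the apolipoprotein Apoa1 had 23 and 0, Apoa2 had 21 and 0, and transthyretin (Ttr) had 15 and 0. Of the 20 genes on the list, 1 was at 0 in replicate 1 and 16 in replicate 2, and 8 of the 10 with enough reads were higher in replicate 1 by the same exact binomial test, 0 lower. Hp, Trf and Pck1 had at least 48 reads in each library, and without them, a choice made after seeing the values, the other 17 genes summed to 175 reads in replicate 1 and 1 in replicate 2. Those 17 genes summed to 441 CPM in replicate 1 and 1.40 CPM in replicate 2, and the full list to 939 and 302 CPM. Cyp2f2 and Cyp2e1 are of family 2, known from liver and lung. Cyp2f2 had 1674 CPM in replicate 1 and 1240 CPM in replicate 2, and Cyp2e1 had 45.3 and 43.5 CPM. Of the 5 cortex genes above, 2 were higher in replicate 1 by the same test, 1 was lower and 2 did not pass. The log2 ratios of replicate 1 over replicate 2 were 0.39 for Star, 0.22 for Cyp11a1 and -0.15 for Hsd3b1. The part of hepatocyte RNA in the members' reads, and of hepatocyte or cortex RNA in the difference of Cyp2f2 between the libraries, was not tested.

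**Figure D5:**
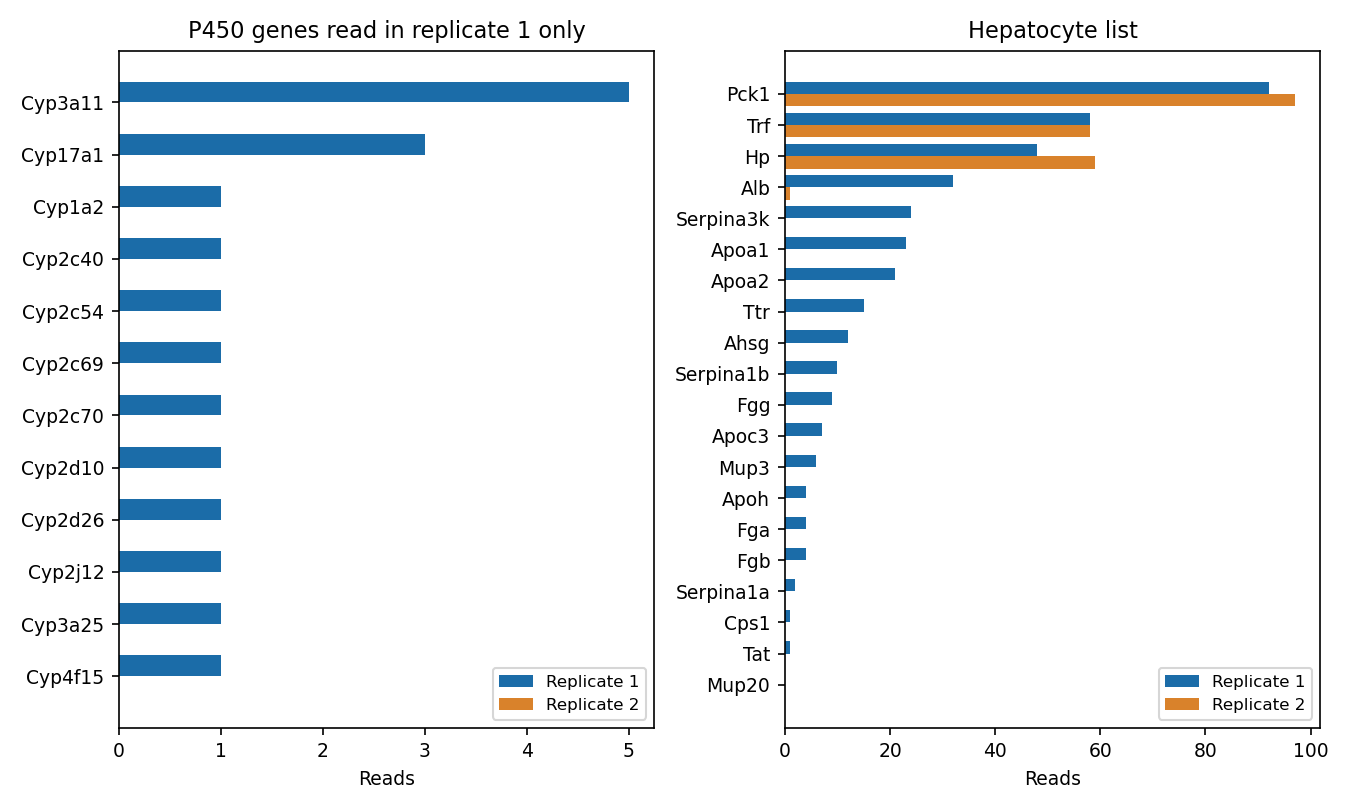
Reads in replicate 1 (upper bar) and replicate 2 (lower bar) of the 12 P450 genes read in replicate 1 only and of the 20 genes of the hepatocyte list. Hp, Trf and Pck1 had at least 48 reads in each library, Alb had 32 and 1 reads, and the other 16 genes had none in replicate 2.

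Most partners and regulators of P450 enzymes were read in both libraries. Of 21 such genes, 20 had reads in replicate 1 and 19 in replicate 2, 17 could be tested, 1 was higher in replicate 1, 1 was lower and 15 did not pass, with a median log2 ratio of 0.10. Por, the reductase that feeds the microsomal members, had 106 reads in replicate 1 and 159 in replicate 2 (245 ± 30.8 CPM), and its partner Cyb5a had 137 and 319 (396 ± 72.9 CPM). Of the mitochondrial chain, 2 genes were more abundant than Por and Cyb5a: ferredoxin Fdx1 had 674 and 963 reads and ferredoxin reductase Fdxr had 554 and 930. The ferredoxin gene Fdx1l had 14 reads in replicate 1 and 32 in replicate 2. Also on the list, Cyb5r3 had 340 and 529 reads and Pgrmc1 had 400 and 724. Fdx1 was 1.26-fold higher in replicate 1 (exact binomial adjusted p = 0.000842), and Alas1, which opens heme synthesis, was lower there at a ratio of 0.779 (exact binomial adjusted p = 0.00351). The receptors on the list ranged widely in level. Nr1h2, an oxysterol receptor, had 67 reads in replicate 1 and 153 in replicate 2 (192 ± 32.7 CPM), its relative Nr1h3 had 23 and 17, and their dimer partner Rxra had 17 and 13. The dioxin receptor Ahr had 2 reads in each library, Nr1i2 had 1 and 0, Nr1i3 had 0 in both, and Ppara had 3 and 2.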

How the data were processed

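Long-read RNA libraries of 2 adrenal samples were analysed from the deposited tables, in which, per the file headers, the authors give whole read counts per transcript model of each library, with the model's exons and length. Per the labels, the genome build is mm10; models carry GENCODE and TALON identifiers, each library on its own, and every annotated gene matched GENCODE M21. Aligner and program versions are not given in the sources used here. Gene counts are sums over all models of an annotated gene, ERCC controls were counted apart, and the SIRV controls and parental alleles were not analysed here. Junctions were read from the deposited exon positions, and sequences from the GENCODE M21 transcripts.

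Members, gene lists and tests were chosen with earlier results of these data known. Every member with at least 10 reads summed is named with its reads, the rest with their reads or by subfamily, and models outside the annotation if they had at least 3 reads in each library or were the most read of a named member. Genes with at least 10 reads summed entered an exact binomial test (two-sided) against library totals, with Benjamini-Hochberg adjustment over all of them at 0.05. Log2 ratios had 0.5 added to each count. Intervals are 95% Wilson or exact binomial, cover counting error only, and molecular identifiers were not given. The test was checked on simulated data with counting error only, so the check does not cover other variation between libraries. Alternatives used TMM (edgeR 4.0.16) and DESeq2 1.42.0 scaling. Other tools were Python 3.11.15, scipy 1.17.1, Biopython 1.88, BLAST+ 2.17.0 (best alignment between genes) and R 4.3.3.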

Additional observations from a re-analysis of the deposited data

Results flagged for a closer look

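An unannotated model of 1 exon on the strand opposite to Cyp2u1 had 13 reads in replicate 2 (18.3 CPM, 1486 bases). A further opposite-strand model in replicate 2 had 1 read (1861 bases), and replicate 1 had 1 read on a model of 90 bases. The model with 13 reads stands outside every count above and was flagged for having more than 3 reads. Replicate 1 had 1 read rather than 0, so the limit for a count of 0 does not apply. The number of Cyp2u1 reads was 4 in replicate 1 and 8 in replicate 2, and the way strand was handled is not given in the sources used here.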

How the results depend on the processing

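The count of members read in both libraries was 22 and fell to 8 when at least 5 reads were asked for in each, since fewer genes then pass; it was 17 with annotated transcripts only, 21 without 1-exon models, 20 without incomplete and genomic models, and 19.9 on average (SD 1.04 over 20 draws) with replicate 2 thinned. Members with any read numbered 24 without replicate 1 and 34 without replicate 2, alternatives chosen after seeing the data. The summed level of 1832 CPM became 1511 CPM with annotated transcripts only, which leave out other reads, and ranged from 1638 to 2027 CPM when each library was left out in turn. Cyp2f2 was called, and no other member, under all 7 alternatives of the test: annotated transcripts only, no 1-exon models, no incomplete or genomic models, TMM and DESeq2 scaling, no filter and at least 30 reads. Its highest adjusted p over them, by the exact binomial test, was 1.22e-05. The 2 scalings shifted all ratios by 0.05 on the log2 scale. Of 125 values for single members under alternatives, 110 kept their value or call and 15 levels moved by more than their spread. With annotated transcripts only, Cyp2d22 was at 1.96 CPM in place of 45.6, Cyp4f14 at 1.96 in place of 9.95, Cyp27a1 at 4.07 in place of 9.95 and Cyp4f16 at 8.69 in place of 17.5. No member could be tested for a change in transcript use between libraries, because 0 had 2 annotated transcripts at 20 or at 10 reads in each library. With incomplete models as a further class, Cyp2f2 and Cyp4f13 could be tested by Fisher's exact test and neither passed (adjusted p = 1 and 0.964; 0 of 2 also at an unadjusted p under 0.05). No paired analysis was possible because there is 1 group of 2 libraries. Depth limits any member under 10 reads to detection.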

Other observations

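P450 pseudogenes, which the naming rule does not take, also had reads. Cyp21a2-ps, a pseudogene of the steroid 21-hydroxylase, was read 91 times in replicate 1 and 282 times in replicate 2, Cyp2a21-ps had 9 and 7, and Cyp4f41-ps had 0 and 2. Cyp2a21-ps was thus read in both libraries while its 4 protein-coding relatives of the Cyp2a subfamily had no read in either. Cyp21a1 itself had 6764 reads in replicate 1 and 11972 in replicate 2, and misassignment of its reads to Cyp21a2-ps was not tested.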
